A study of Mus musculus with 4 samples.

Results

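DNA methylation was examined at 7 genes that encode subunits of the GABA-A receptor: the alpha subunit genes Gabra2, Gabra4, Gabra5 and Gabra6, the beta subunit genes Gabrb1 and Gabrb2, and the delta subunit gene Gabrd. The authors' values are percent methylation by genomic region, one value per library, with a gene name where they assigned one. The members are the regions that carry the name of 1 of the 7 genes, plus the regions within 3000 bp of the outermost of these. This gave 263 of the 849014 regions with a value in all libraries, 244 by gene name and 19 in the flanks. Regions that lacked a value were left out before the members were picked. The libraries are whole-genome bisulfite libraries of CA1 hippocampal tissue from C57B6/J mice at 117 days. Of the 4 libraries, 2 are labelled Tet2+f_Camk2aCre and 2 are labelled Tet2+f. The labels are read here as mice with a wild-type and a floxed Tet2 allele, with or without Cre recombinase driven by the Camk2a promoter, which is active in excitatory forebrain neurons. Both groups carry the floxed allele, and no group carries Cre without it, so reduced Tet2 and the Cre transgene cannot be told apart. Sex is not among the labels, and neither is whether replicates are different animals, so the p-values below rest on a spread between libraries that may be technical.

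GABA-A receptors are chloride channels built from several subunits around a central pore, and they carry most fast inhibition in the brain. The alpha and beta subunits form the GABA binding sites between them, and the choice of alpha, gamma or delta subunit sets where on the neuron the receptor sits and how long its current lasts. In the hippocampus, receptors at synapses mostly hold a gamma subunit. Receptors with the alpha 5 or delta subunit lie mostly outside synapses and carry a tonic current. Methylation of cytosine in CG dinucleotides is usually low where a CG-rich gene start is active or poised and high in the body of a gene. TET2 oxidises 5-methylcytosine, so the comparison asks whether methylation differs where its dose is reduced. Bisulfite sequencing reads 5-methylcytosine and its oxidised form 5-hydroxymethylcytosine alike.

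The sequences before 4 of the gene starts are shown because they run from CG-rich to CG-poor. They are the 250 bases before the start on the strand of the gene, from RefSeq (GRCm38.p6, the mm10 assembly), for Gabra2 (chr5:71095850-71096099, minus strand), Gabra5 (chr7:57510060-57510309, minus strand), Gabrb2 (chr11:42420190-42420439, plus strand) and Gabra6 (chr11:42321073-42321322, minus strand). Capitals mark each CG, the site that can be methylated.
Gabra2: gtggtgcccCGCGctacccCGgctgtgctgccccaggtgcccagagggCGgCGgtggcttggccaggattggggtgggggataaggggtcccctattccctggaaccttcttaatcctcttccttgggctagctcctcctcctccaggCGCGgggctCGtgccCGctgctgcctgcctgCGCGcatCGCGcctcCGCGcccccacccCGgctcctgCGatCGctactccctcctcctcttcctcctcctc
Gabra5: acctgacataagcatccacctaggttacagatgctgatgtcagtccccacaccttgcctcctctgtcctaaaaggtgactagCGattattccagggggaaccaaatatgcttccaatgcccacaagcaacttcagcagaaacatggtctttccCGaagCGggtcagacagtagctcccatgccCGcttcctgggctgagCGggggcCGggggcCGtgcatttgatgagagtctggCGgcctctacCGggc
Gabrb2: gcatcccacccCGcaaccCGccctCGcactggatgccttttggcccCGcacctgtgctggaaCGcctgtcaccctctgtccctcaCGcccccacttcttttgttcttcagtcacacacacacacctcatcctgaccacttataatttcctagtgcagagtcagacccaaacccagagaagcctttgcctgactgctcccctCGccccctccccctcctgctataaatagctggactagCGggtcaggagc
Gabra6: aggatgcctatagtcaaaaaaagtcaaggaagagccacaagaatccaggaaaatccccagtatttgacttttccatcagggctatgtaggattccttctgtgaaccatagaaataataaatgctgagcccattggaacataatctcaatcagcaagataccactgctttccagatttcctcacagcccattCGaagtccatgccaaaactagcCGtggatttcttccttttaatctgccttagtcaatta
The Gabra2 stretch holds 18 CG, the Gabra5 stretch 9, the Gabrb2 stretch 8 and the Gabra6 stretch 2. Over 32851 RefSeq promoters of the same length the median is 6 CG, with quartiles of 2 and 16. The stretch before the Gabra4 start holds 12 CG, the one before the upstream start of Gabrb1 holds 18, and the one before its other start holds 6. Gabrb2 has further RefSeq starts at 42420774 and 42421201, with 8 and 4 CG in the stretches before them. RefSeq starts were matched for 6 of the 7 members. For Gabrd the 5′ end of the gene in RefSeq's gene table was used.

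The starts used here for 6 of the 7 genes lay in or beside unmethylated DNA in every library, and the start of Gabra6 lay in methylated DNA in every library. Over the whole table, 36.7% of the regions that hold a start averaged under 10%. Of the 263 member regions, 17 averaged under 10% over the 4 libraries, or 6.46%, against 5.71% of all regions. Each of these 17 had its nearer edge within 889 bp of a start or spanned it. They were short, at 169 to 1154 bp, against a median of 4167.5 bp for the other member regions. Gabra5 had 5 of them, Gabra4 and Gabrb2 had 3 each, Gabra2, Gabrb1 and Gabrd had 2 each, and Gabra6 had 0. In a bulk tissue, methylation in a larger share of cells and a change in the mix of cell types cannot be told apart.

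**Figure D1:**
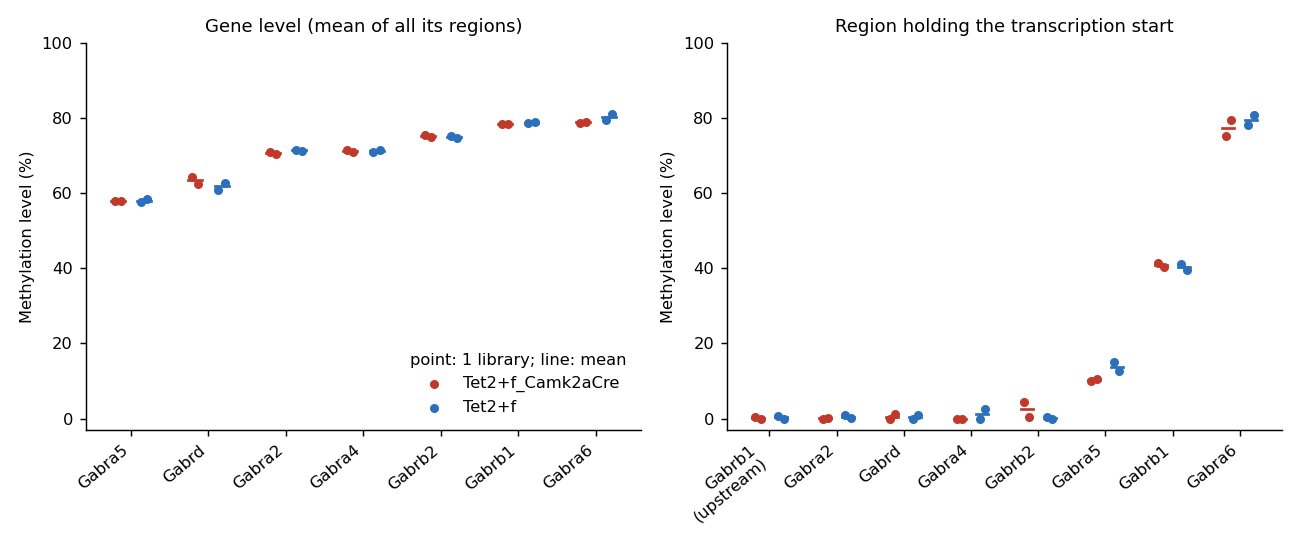
Percent methylation of each of the 4 libraries (points) with the mean of each group (lines). The left panel gives the whole gene, all regions of a gene counted equally. The right panel gives the region that holds the transcription start, with the outermost matched start for Gabrb2 and both for Gabrb1. At the start, Gabra6 sits between 75.2 and 80.7%, while Gabra2, Gabra4, Gabrb2, Gabrd and the upstream start of Gabrb1 sit under 5%.

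Gabra2 encodes an alpha subunit found at synapses and on the first stretch of the axon. Gabra2 occupies bases 70958392 to 71095849 of chromosome 5, minus strand. The region that holds its start, from 71095344 to 71095905, was at 0 and 0.171% in the Tet2+f_Camk2aCre libraries and at 0.862 and 0.169% in the Tet2+f libraries. The groups overlapped there and lay next to 0. The region just upstream, from 71095910 to 71096293, was at 0.435 and 0% with Cre and at 0% in both Tet2+f libraries. On both sides followed regions of intermediate level: 13.0 and 11.2% with Cre against 9.41 and 13.1% in Tet2+f upstream (71096299 to 71098098), and 17.8 and 15.3% with Cre against 19.4 and 17.2% in Tet2+f inside the gene (71093258 to 71095343). Gabra2 thus had a low stretch with graded edges, and its groups overlapped in each of these 4 regions.

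Gabra4 encodes an alpha subunit that pairs with the delta subunit in receptors outside synapses. Gabra4 occupies bases 71569734 to 71658308 of chromosome 5, minus strand, and the long RefSeq transcripts of Gabrb1 start inside its 5′ end on the other strand. Its start region, from 71658015 to 71658468, was at 0% in both Cre libraries and at 0 and 2.55% in the Tet2+f libraries. The region that holds the upstream Gabrb1 start, from 71657784 to 71658014, was at 0.510 and 0% with Cre and at 0.680 and 0% in Tet2+f. Both starts fall in a run of 3 neighbouring regions under 10% that spans 1473 bp, from 71656996 to 71658468, in each of the 4 libraries. The edge was sharp upstream of Gabra4, where the next region (71658473 to 71662561) was at 79.8 and 76.4% with Cre and at 76.9% in both Tet2+f libraries.

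Gabrb1 encodes a beta subunit, and it is the longest of the 7 genes, with 104 regions. In RefSeq it occupies bases 71657921 to 72149572 of chromosome 5, plus strand, while the regions that the deposited table names Gabrb1 begin at 71696293, around its other start at 71699932. That start lies 4 bp before the end of a region from 71696293 to 71699936, which was at 41.4 and 40.3% in the Cre libraries and at 41.3 and 39.5% in the Tet2+f libraries. Its downstream neighbour (71699953 to 71700819) was at 0.203 and 1.13% with Cre and at 0.357 and 0.872% in Tet2+f, and the next (71700821 to 71701134), the lowest of the gene, at 0.725 and 0% with Cre and at 0.676 and 0% in Tet2+f. The level of 40.6% for the region that holds this start is therefore an average over 3644 bp of upstream DNA, and the low stretch begins just downstream of this start.

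Gabrb2 encodes a beta subunit that is abundant in the forebrain. Gabrb2 occupies bases 42419515 to 42632591 of chromosome 11, plus strand. The outermost of its RefSeq starts matched here, at 42420440, lies inside these bounds. It falls in a region from 42420154 to 42420724 at 4.44 and 0.543% with Cre and at 0.543 and 0% in Tet2+f. A single Cre library stood above the rest there. Averaged over the 4 libraries, the 3 low regions of Gabrb2 formed the longest low run among the members, 2241 bp. In Tet2+f replicate 1 the Gabra2 run was longer, at 2755 bp. The Gabrb2 run had the same bounds in each library, from 42419638 to 42421878. The starts at 42420774 and 42421201 fall in its last region, from 42420725, at 3.97 and 5.02% with Cre and at 4.56 and 4.12% in Tet2+f. Upstream of the run, the region from 42418642 to 42419492 was at 52.7 and 53.5% with Cre and at 59.1 and 56.0% in Tet2+f, so the groups did not overlap there (limma adjusted p = 0.937).

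Gabrd encodes the delta subunit of receptors outside synapses, which are sensitive to neurosteroids. Gabrd occupies bases 155384979 to 155398098 of chromosome 4, minus strand, and is the shortest of the 7 genes. Its start region, from 155397829 to 155398102, was at 0 and 1.14% with Cre and at 0 and 1.06% in Tet2+f. The low run spanned 649 bp in each library, from 155397829 to 155398477. The region beyond it inside the gene, from 155396814 to 155397814, was at 34.2 and 33.9% with Cre and at 28.8 and 34.5% in Tet2+f.

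Gabra5 encodes the alpha subunit that carries much of the tonic inhibition of CA1 pyramidal neurons. In RefSeq it occupies bases 57407669 to 57591016 of chromosome 7, minus strand, with the start matched here at 57510059. That start lies inside these bounds. The regions named Gabra5 end at 57510707, and DNA near 57591016 was not examined. As at the inner Gabrb1 start, the low run began just downstream of the start used. The start itself lay in a region (57509984 to 57510707) at 9.91 and 10.7% with Cre and at 15.1 and 12.6% in Tet2+f. The 4 regions next to it downstream, from 57509171 to 57509983, were between 0 and 1.72%, except for 2.95 and 7.99% in replicate 1 of the Cre group at the third and the fourth of them. The lowest of the gene, from 57509815 to 57509983, was at 0% in both Cre libraries and at 0 and 0.500% in Tet2+f. Both Cre libraries were below both Tet2+f libraries at 3 of the 8 regions from 57507124 to 57514497, all at the edges of the run. These were the start region, the region from 57508741 to 57509170 (3.86 and 5.16% with Cre against 7.20 and 8.38% in Tet2+f) and the region from 57507124 to 57508740 (40.4 and 49.0% with Cre against 52.4 and 50.3% in Tet2+f). These regions were picked out after their values were seen, their differences of -3.57, -3.29 and -6.62 points had a limma adjusted p of 0.937 each, and over the whole table both Cre libraries were below both Tet2+f libraries at 16.8% of regions. The difference at the last of them came to -2.31 points when Cre replicate 1 was left out and to -10.9 points when Cre replicate 2 was. At the start region it came to -2.28 points when Tet2+f replicate 1 was left out.

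**Figure D2:**
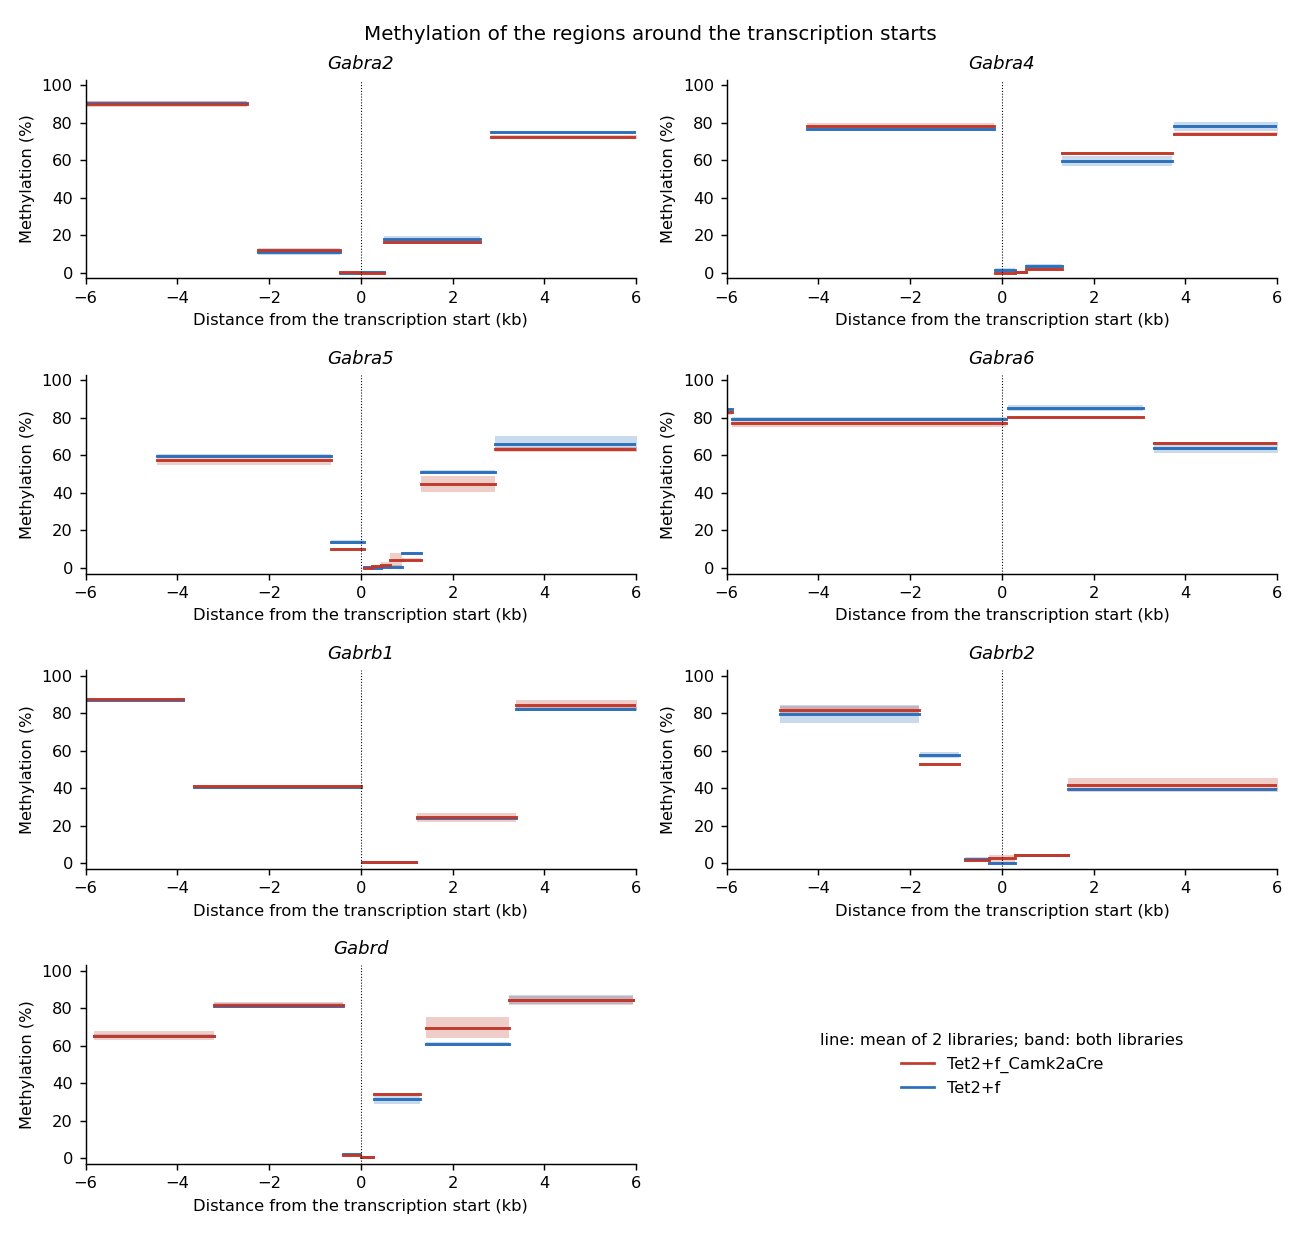
Percent methylation of each region against its distance from the transcription start in kb (negative is upstream), for the 7 genes. Lines give the mean of 2 libraries and bands span both libraries of a group. The level drops under 5% at or next to the start in 6 genes, and for Gabra6 the region across the start stays between 75.2 and 80.7%.

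Gabra6 encodes the alpha subunit of cerebellar granule neurons, a cell type that the hippocampus lacks. Gabra6 occupies bases 42306437 to 42321072 of chromosome 11, minus strand. The region that holds its start, from 42320976 to 42326952, was at 75.2 and 79.3% in the Cre libraries and at 78.2 and 80.7% in the Tet2+f libraries. That region is 5977 bp long, so a short dip at the start could not be seen in it. The region just inside the gene, from 42317992 to 42320931, was at 80.7 and 79.9% with Cre and at 83.9 and 86.7% in Tet2+f, a difference of -4.97 points with no overlap between the groups (limma adjusted p = 0.937). The lowest of the 7 regions of the gene, from 42314349 to 42317754, was at 67.1 and 65.8% with Cre and at 61.1 and 66.9% in Tet2+f. With 2 CG in the 250 bases before its start, Gabra6 had fewer than the other 5 members with a RefSeq start, and 18.8% of all promoters had fewer still.

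Averaged over 2000 bp upstream to 500 bp downstream of each start, the levels spread from Gabra2 to Gabra6. Long regions count whole in this window, so a window can take in methylated DNA from outside it. The Gabra2 window was at 4.46 and 3.79% in the Cre libraries and at 3.43 and 4.43% in the Tet2+f libraries, lower than all but 1.67% of the 35326 start windows of the genome. The Gabra6 window was at 78.0 and 79.6% with Cre and at 81.0 and 83.7% in Tet2+f, above 74.1% of all windows. The other members lay between 13.5 and 30.1% in every library. Over all start windows the median was 57.9%.

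The group difference did not pass the test at any start window of the members. Across all 35326 windows, limma on logit-transformed levels with Benjamini-Hochberg adjustment called 5, or 0.0142%, and 0 of the 9 windows of the members (smallest adjusted p = 0.942). The 5 calls elsewhere were lost, to 0, with any single library left out, on the percent scale or with the replicate number as a block. Calls also numbered 0 with 500 bp on both sides and in the region that holds the start. With length weighting, 6 windows passed, and 0 of the 9 of the members. Without adjustment, 0 of the 9 had p under 0.05, against 5.31% of all windows. Of the 9 windows, 4 were higher and 5 lower with Cre, with a median difference of -0.0278 points, and over all windows 51.1% were higher with a median of 0.0365 points. In 3 of them both Cre libraries were below both Tet2+f libraries, against 16.7% of all windows, and in 0 of them were they above, against 17.0%, or 33.7% in either direction. The 3 were the windows of Gabra5, of Gabra6 and of the Gabrb2 start at 42420774, and the last shares its 4 regions with the window of the outer start. The Gabrb2 start at 42421201 takes in the same regions as that at 42420774 and was not counted apart. The Gabra6 window differed most, by -3.57 points, with group means of 78.8 ± 1.15% with Cre and 82.4 ± 1.88% in Tet2+f (SD, n = 2 each, limma adjusted p = 0.942). It came to -2.25 points when Tet2+f replicate 2 was left out and to -4.90 points when Tet2+f replicate 1 was.

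Averaged over all regions of a gene, the low ones at the start and the flanks included, levels changed little from library to library. With each region counted equally, Gabra5 averaged 58.0% in both Cre libraries and 57.5 and 58.5% in the Tet2+f libraries, the lowest of the 7 genes. Gabrd followed at 64.3 and 62.5% with Cre and 60.9 and 62.7% in Tet2+f. Gabra2 was at 70.9 and 70.3% with Cre and at 71.6 and 71.3% in Tet2+f. Gabra4 was at 71.5 and 70.9% with Cre and at 71.0 and 71.5% in Tet2+f. Over the 4 libraries the ranges of these 2 genes overlapped, so their order is not resolved. Gabrb2 was at 75.5 and 74.9% with Cre and at 75.1 and 74.6% in Tet2+f. Gabrb1 was at 78.4% in both Cre libraries and at 78.7 and 78.8% in Tet2+f, and Gabra6 was at 78.6 and 79.0% with Cre and at 79.4 and 81.0% in Tet2+f, again with overlapping ranges.

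That order rests in part on how many short low regions each gene has. With regions weighted by length, the 7 genes moved together, between 72.1% for Gabrd and 80.2% for Gabra6, each the mean over 4 libraries. Gabra5 then averaged 72.5%, and its range overlapped that of Gabrd. Gabra4 rose past Gabrb2 in that order, at 79.8 and 78.6%. Over the 25470 genes of the table, handled by the same rule, the median level with equal weights was 72.4%.

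The test called none of the 7 genes different between the groups. With limma and Benjamini-Hochberg adjustment over all 25470 genes, 0 of the 7 members and 0% of all genes had an adjusted p under 0.05, and 0 of the 7 had an unadjusted p under 0.05, against 5.54% of all genes. Gabrd was higher with Cre by 1.63 points (63.4 ± 1.30% with Cre, 61.8 ± 1.29% in Tet2+f, SD, n = 2 each, adjusted p = 0.972), and its libraries overlapped. The Gabrd difference came to 0.715 points when Cre replicate 1 was left out, 2.55 when Cre replicate 2 was, 0.721 when Tet2+f replicate 1 was and 2.54 when Tet2+f replicate 2 was. Gabra6 differed by -1.41 points (78.8 ± 0.292% with Cre, 80.2 ± 1.17% in Tet2+f, SD, n = 2 each, adjusted p = 0.960), and by -2.24 points when Tet2+f replicate 1 was left out and -0.579 points when Tet2+f replicate 2 was. Gabra2 differed by -0.870 points (70.6 ± 0.424% with Cre, 71.5 ± 0.19% in Tet2+f, SD, n = 2 each, adjusted p = 0.972), and Gabrb1 by -0.351 points (78.4 ± 0.0460% with Cre, 78.7 ± 0.0773% in Tet2+f, SD, n = 2 each, adjusted p = 0.999). The Gabra2 difference came to -0.570 points when Cre replicate 2 was left out. In Gabra6, Gabra2 and Gabrb1 both Cre libraries were below both Tet2+f libraries, as for 16.2% of all genes, and in 0 of the 7 were they above, against 17.2%. The groups stood apart in either direction in 33.4% of all genes. Gabra4, Gabra5 and Gabrb2 differed by -0.0644, -0.0272 and 0.283 points, with overlapping groups.

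**Figure D3:**
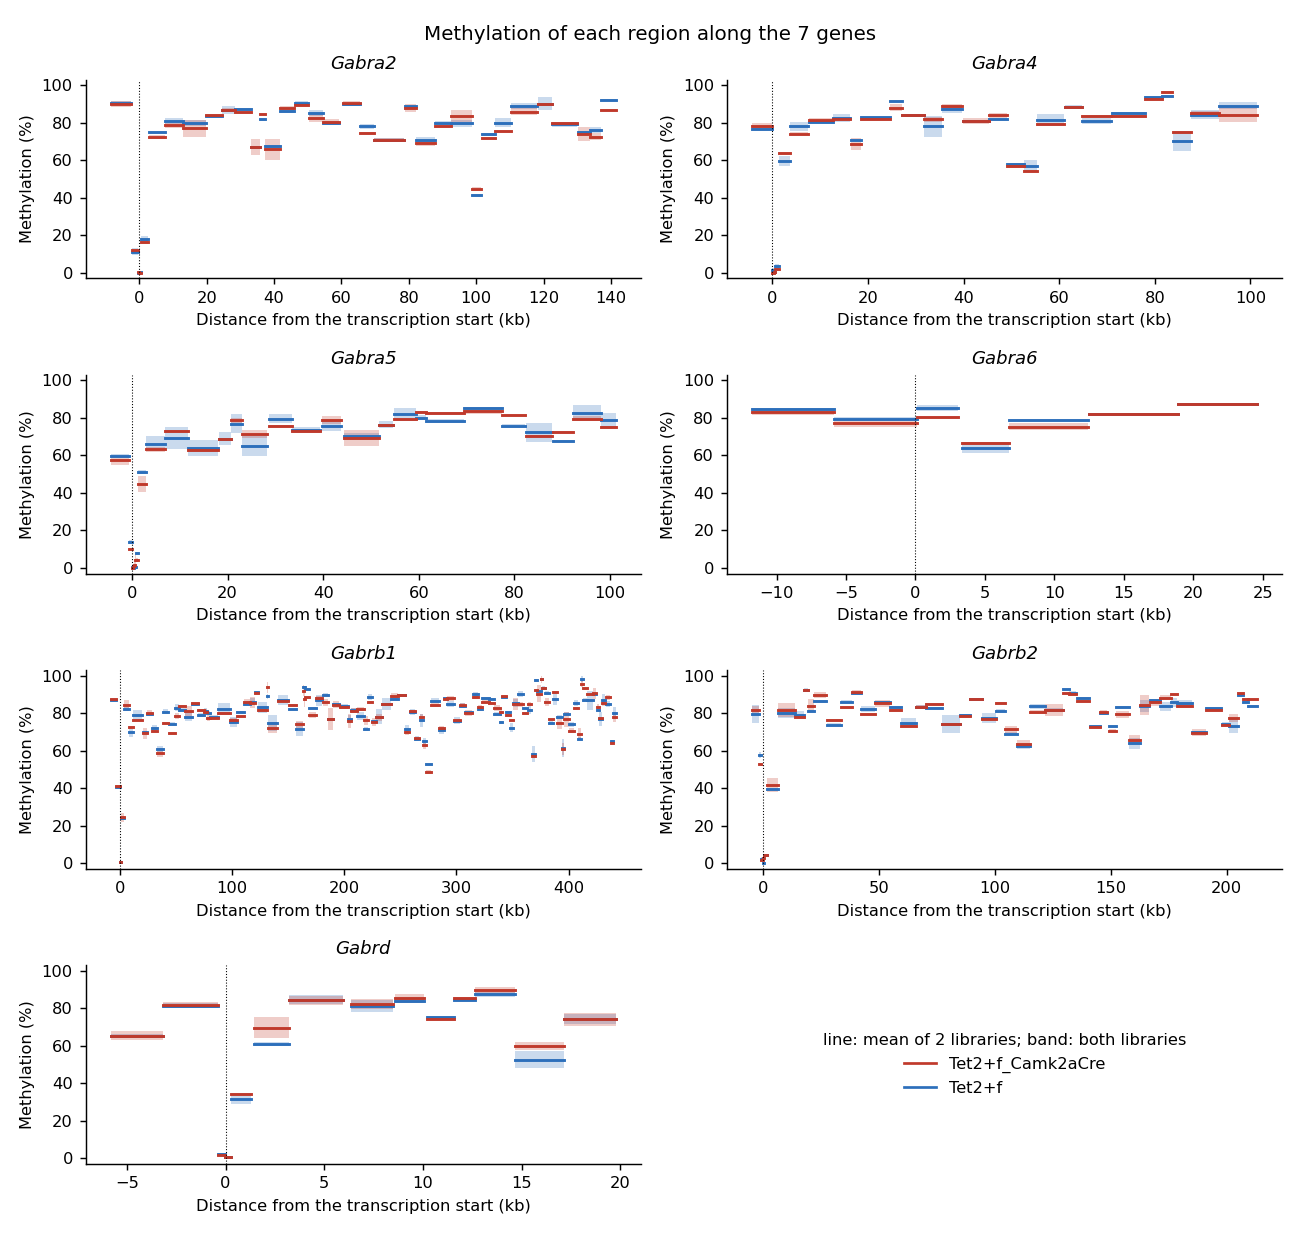
Percent methylation of each region against its distance from the transcription start in kb along the 7 genes, drawn to a different scale for each gene. Lines give the mean of 2 libraries and bands span both libraries of a group. Of the 263 regions, 101 lie at 50 to 80% and 136 at 80% or more, and single dips stand out, such as that of Gabra2, where the Cre libraries are at 43.6 and 45.6% and the Tet2+f libraries at 40.5 and 42.1%.

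Inside the genes, single regions dipped below the level of their surroundings in both groups. More than 5000 bp past the start, 7 of the member regions averaged under 60%, a limit set after the values were seen. The lowest was in Gabra2, from 70994548 to 70997049, at 43.6 and 45.6% with Cre and 40.5 and 42.1% in Tet2+f. In Gabrb1, a region from 71972851 to 71976894 was at 49.7 and 47.5% with Cre and at 53.0% in both Tet2+f libraries. Gabra4 held a pair of neighbouring dips between 71602968 and 71609152, with levels of 53.8 to 58.5% with Cre and of 53.8 to 60.2% in Tet2+f. The groups did not overlap at 3 of the 7 dips, against 32.8% of all regions, and none passed the test (limma adjusted p = 0.937 for the smallest and 0.942 for the largest of the 3), with differences of 3.29 points in Gabra2, -4.39 points in Gabrb1 and 7.33 points in the flank of Gabrd (155380941 to 155383425), where 1 Tet2+f library, at 48.0%, lay far below the other, at 57.0%. What these dips hold was not examined, because no genome sequence was used here.

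Region by region, the share of member regions whose groups stood apart was close to that over the whole table, and none passed the test. Across all 849014 regions, 0% passed limma with Benjamini-Hochberg adjustment, and 0 of the 263 member regions did (smallest adjusted p = 0.937). On simulated levels with the spread of these libraries, gains were planted in regions of low to middle level. The adjusted test over all regions called none at any size tried, so these counts of 0 do not show that regions were alike. Without adjustment, 7 of 263 had p under 0.05, or 2.66%, against 4.60% of all regions, of which 2 were higher with Cre, against 2.25%, and 5 lower, against 2.35%. Both Cre libraries lay outside the range of the Tet2+f libraries on the same side in 86 regions, or 32.7%, against 32.8% of all regions, with 36 higher, against 15.9%, and 50 lower, against 16.8%. By gene, the groups stood apart in 10 of 34 regions of Gabra2, 9 of 27 of Gabra4, 9 of 28 of Gabra5, 2 of 7 of Gabra6, 34 of 104 of Gabrb1, 18 of 49 of Gabrb2 and 4 of 14 of Gabrd. Of the 263 regions 117 were higher and 146 lower with Cre, so 44.5% were higher, against 49.2% of all regions. The median difference was -0.235 points, against -0.0214 points over all regions. The mean over the 263 regions was 73.3 and 72.9% in the Cre libraries and 73.1 and 73.3% in the Tet2+f libraries, a difference of -0.159 points with overlapping groups.

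By the median over all member regions together, differences between the group means were no larger than those between replicates. Over the member regions the median absolute difference between the group means was 1.69 points. It was 1.99 points between the 2 Cre libraries and 2.20 points between the 2 Tet2+f libraries. Over all regions these medians were 1.74, 2.42 and 2.46 points. By gene, only Gabra6, with 7 regions, had a median between the group means above both replicate medians, at 2.18 points against 1.34 with Cre and 1.31 in Tet2+f. In Gabra4, Gabra5 and Gabrb2 it lay between the replicate medians, and in Gabra2, Gabrb1 and Gabrd below both. A difference between means of 2 libraries averages out some of the spread and so is smaller than a difference between single libraries when nothing else differs. The region with the smallest p lay in Gabrb1, from 72069902 to 72071604, at 92.1 and 92.3% with Cre and at 98.4 and 96.7% in Tet2+f, a difference of -5.33 points (limma adjusted p = 0.937). It was the single member region with an unadjusted p under 0.01, or 1 of 263, where 0.703% of all regions had such a p. The region with the largest difference lay in Gabrd, from 155394873 to 155396669, at 75.2 and 63.9% with Cre and at 61.7 and 59.7% in Tet2+f. The 8.86 points between the group means came to 3.20 when Cre replicate 1 was left out and to 14.5 when Cre replicate 2 was.

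**Figure D4:**
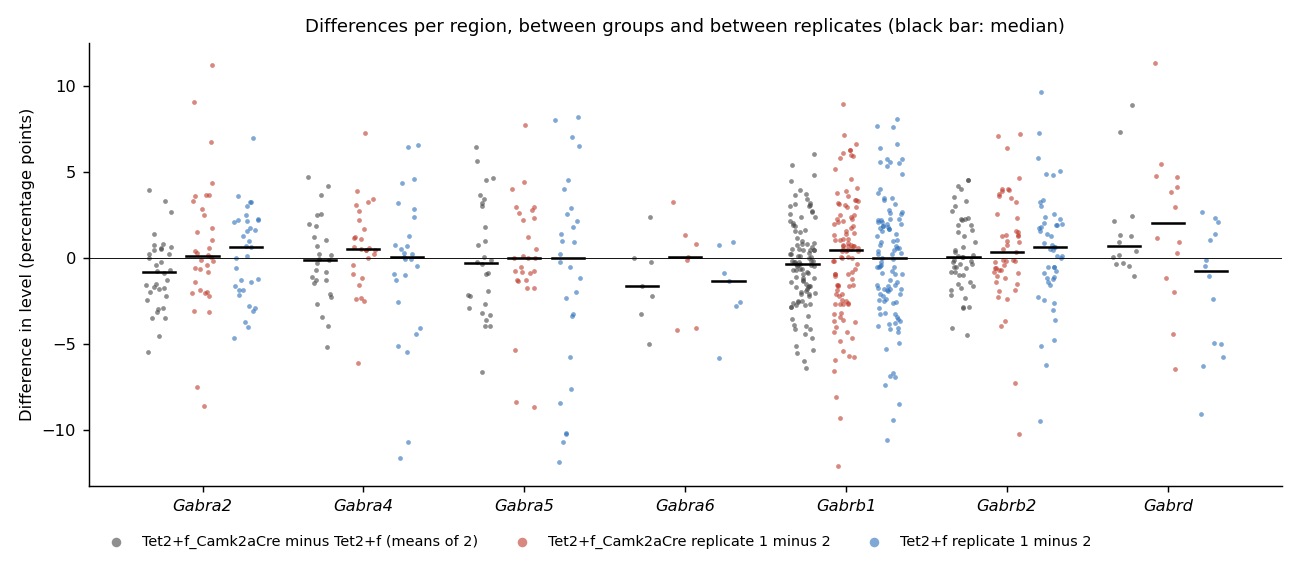
Difference in percentage points for each member region, by gene: between the means of the 2 groups (grey), between the 2 Tet2+f_Camk2aCre libraries (red) and between the 2 Tet2+f libraries (blue), with black bars at the medians. Over all 263 regions the median size of a difference is 1.69 points for the grey points, 1.99 for the red and 2.20 for the blue.

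Other genes of the GABA system, taken from 4 lists of 46 genes, did not pass the test either. Of these, 45 had regions in the table and all had a start window, 52 windows in all. By limma, 0 of the 45 genes and 0 of the 52 windows had an adjusted p under 0.05 (smallest 0.889 and 0.935), and 1 gene and 2 windows had an unadjusted p under 0.05, where 5.54% of all genes and 5.31% of all windows did. Of the 45 genes, 26 were higher with Cre, with a median difference of 0.269 points, and over all genes 51.2% were higher, with a median of 0.0227 points. The gene was Gabra3, an X-linked alpha subunit gene, at 86.7% in both Cre libraries and at 85.5 and 85.8% in Tet2+f (adjusted p = 0.889). The windows were that of Gabrp, which encodes the pi subunit, at 78.2 and 77.4% with Cre and at 80.9 and 80.7% in Tet2+f, and that of Gad1, which encodes a GABA-synthesising enzyme of interneurons, at 7.28 and 7.40% with Cre and at 9.14 and 8.55% in Tet2+f (adjusted p = 0.935 for both).

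Among the 12 other subunit genes, 3 were higher and 9 lower with Cre, with a median difference of -0.381 points over genes, and 4 of their 12 start windows were higher. Gabra6 was not alone among subunits in having a methylated start window. Of those 12 windows, 4 averaged over 70%, and 43.2% of all start windows did. The 4 were those of Gabrp and of the 3 rho subunit genes Gabrr1, Gabrr2 and Gabrr3, known from the retina. The level of the region that holds the start is not given for them. The Gabrr3 window was at 76.1 and 77.8% with Cre and at 78.8 and 81.7% in Tet2+f, a difference of -3.33 points. The rho genes were named after their values were seen. Of the 17 genes for assembly, anchoring and trafficking, 11 were higher with Cre, with a median of 0.402 points over genes. Of the 11 genes for GABA synthesis, transport, breakdown and chloride balance, 8 were higher, with a median of 0.328 points. Of the 5 measured genes of the GABA-B receptor and its auxiliary subunits, 4 were higher, with a median of 0.307 points. The other, Kctd12b, differed by -3.24 points, the largest difference of the 45 genes (limma adjusted p = 0.945). Start windows did not follow the genes throughout. In these 3 lists 16 of 20, 6 of 14 and 3 of 6 windows were higher with Cre, with medians of 0.481, -0.247 and -0.349 points.

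Over the whole table the 4 libraries were alike, with mean levels of 76.0 and 75.8% with Cre and 75.7 and 76.1% in Tet2+f libraries and correlations over regions of 0.979 to 0.984. The tissue label can be checked only indirectly, since a methylation level is not a level of expression. The median start window of 9 measured CA1 pyramidal marker genes was at 22.3 and 21.3% with Cre and at 22.6 and 20.9% in Tet2+f. That of 4 microglia markers was at 80.1 and 76.1% with Cre and at 77.5% in both Tet2+f libraries, and that of 4 astrocyte markers was at 64.4 and 65.8% with Cre and at 62.0 and 63.8% in Tet2+f. That of 4 oligodendrocyte markers was at 55.3 and 58.6% with Cre and at 61.4 and 61.8% in Tet2+f. The groups stood apart for the astrocyte list (higher with Cre) and the oligodendrocyte list (lower with Cre), and overlapped for the other lists. Among all single start windows, the groups stood apart in 33.7%. Whether the astrocyte and oligodendrocyte lists have a part in the differences given above was not tested. For 4 dentate gyrus markers the median was at 17.9 and 18.2% with Cre and at 17.8 and 18.8% in Tet2+f, and for 6 interneuron markers at 23.2 and 23.9% with Cre and at 22.4 and 23.8% in Tet2+f. For 3 endothelial markers it was at 41.9 and 38.1% with Cre and at 39.2 and 42.7% in Tet2+f, and for 5 markers of cerebellar granule neurons at 28.5 and 27.9% with Cre and at 31.5 and 27.4% in Tet2+f.

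As a description, each member was set beside the gene with the most similar levels, by the root mean square difference over 8 values, the gene level and the start level in each of the 4 libraries. Among 12391 genes with at least 10 regions, Gmps was closest to Gabra4 (0.303 points), Spice1 to Gabrb2 (0.341 points), Nbeal1 to Gabrb1 (0.449 points), Ephb3 to Gabra5 (0.596 points), Rab30 to Gabra2 (0.797 points) and Arhgef7 to Gabrd (0.846 points). For Gabra6 the closest was Rxfp2 (1.14 points), whose start level was 80.4% over the 4 libraries.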

How the data were processed

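Whole-genome bisulfite sequencing was done on 4 libraries of CA1 tissue, grouped by their titles into 2 groups of 2. The submitters' processing notes name Bismark 0.19.0, Trim Galore 0.4.5, FastQC 0.11.5, edgeR and the build mm10, and do not say which step used which tool. The authors deposited percent methylation per region and library. The rule that set region bounds, and how CpGs were averaged, is not given in the sources used here. As the table holds no counts or coverage, depth is unknown, no interval for counting error is given, and levels of exactly 0% may rest on few reads. Of 849172 regions, 158 lacked a value in a library and were left out.

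Group differences were tested with the R 4.3.3 package limma 3.58.1 after taking log2 of (level + 0.01) over (1 - level + 0.01), with level a share of 1, with Benjamini-Hochberg adjustment at 0.05 over all regions, genes or start windows. A gene is the mean over its regions and those within 3000 bp, and a start window runs from 2000 bp upstream to 500 bp downstream. Starts came from RefSeq (30702 windows) or from the gene end by the deposited strand (4624 windows). On simulated levels with known changes, the adjusted test called none of the changed regions, and of changed windows none at the smallest change tried and most at the larger ones. It called most of the changed genes at each size. The changes were gains only, planted in features with levels below those of every member gene. How often losses, or changes at the levels of the member genes, would be called was not tested. Named were all members, their start regions, their lowest region, regions with an unadjusted p under 0.01, and other GABA genes with an unadjusted p under 0.05. The members and lists were chosen with earlier results of these data known. Alternatives were each library left out, a replicate block, the percent scale, an offset of 0.05, other flanks and windows, length weighting, centring, a minimum region length and a trended, robust prior.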

Additional observations from a re-analysis of the deposited data

How the results depend on the processing

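With 2 libraries a group and unknown coverage, small differences could not be resolved. Under the 10 alternatives run for regions and for genes and the 9 for start windows, 0 member regions, 0 member genes and 0 member windows passed, with a smallest adjusted p of 0.807 for regions, 0.814 for genes and 0.768 for windows. Member regions at an unadjusted p under 0.05 numbered 5 to 12. With the replicate block, 0 member regions, genes and windows passed. For regions the count of 0 says nothing about stability, since the adjusted test over all regions made no calls in the check described under processing. With regions under 500 bp left out, the test called 5 regions over the whole table and 0 of the 250 member regions kept. Replicate numbers were not treated as pairs, as the difference between replicates in one group had a correlation of 0.00648 across regions with that in the other. Without 1 library, the lone one of its group is assumed to vary like the other group.

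When single libraries were left out, the mean over all member regions differed by -0.340 to 0.0224 points. Direction also turned, by which library was left out, for the genes Gabra4 (-0.381 to 0.252 points), Gabra5 (-0.498 to 0.444) and Gabrb2 (-0.000850 to 0.567), and for the windows of Gabra2 (-0.307 to 0.698), Gabra4 (-0.706 to 0.614), Gabrb1 (-0.219 to 0.909 upstream, -0.0380 to 0.566 at the other start), Gabrb2 at the outer start (-0.799 to 0.743) and Gabrd (-0.533 to 1.80). Without the flank, Gabra4 turned to 0.0870 and Gabra5 to 0.207 points, and with length weighting Gabra5 turned to 0.205 points and the windows of Gabra4 and of the outer Gabrb2 start to 0.922 and 0.719 points. With 500 bp on both sides, the upstream Gabrb1 window turned to -0.934 points and the 2 Gabrb2 windows to 0.680 and 1.19 points. In the region that holds the start, an alternative chosen after seeing the data, Gabra2 was at -0.430, the upstream Gabrb1 start at -0.0850 and the Gabrb2 starts at 2.22 and 0.155 points. The cause was not tested. The other 175 of 200 values of named genes, windows and regions kept their direction, and 0 of the 200 passed the threshold.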
